A study of Mus musculus with 12 samples.

Results

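Matrix metalloproteinases, their tissue inhibitors and 2 membrane-bound ADAM proteases were followed in BV2 microglia. The 10 genes were chosen by name from the 21834 protein-coding genes of the deposited count table, with earlier results of the same libraries known. They are the metalloproteinases Mmp12, Mmp13, Mmp19, Mmp9, Mmp8 and Mmp14, the inhibitors Timp2 and Timp1, and the proteases Adam17 and Adam8. All 10 were found in 1 row each. Because their values were known when they were chosen, their levels and changes are given as a description, without p-values.

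The BV2 line is a mouse microglial line that grows without limit in culture. Stable derivatives had been made with lentivirus and puromycin selection. The shCtrl line carried a control shRNA and the shAnxa2 line an shRNA that targets Anxa2, the gene of the calcium- and membrane-binding protein annexin A2. Each line was left untreated (CTRL) or taken through oxygen-glucose deprivation and reoxygenation (OGD/R), a culture model of ischemia and reperfusion, set in the labels at 4 h without oxygen and glucose and 12 h of recovery, while the methods of the study name a longer recovery. RNA of the 4 groups, shCtrl-CTRL, shCtrl-OGDR, shAnxa2-CTRL and shAnxa2-OGDR, was sequenced in 3 biological replicates each, 12 libraries in all. Groups were read from the sample names, since a further label that calls cells WT or Anxa2 knockdown follows the treatment and conflicts with those names. Each shRNA was represented by 1 stable line, so the effect of the knockdown cannot be told apart from other differences between the lines.

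Matrix metalloproteinases are secreted or membrane-anchored zinc enzymes that cut collagens, elastin, basement membrane and many signalling proteins. They are made as inactive proenzymes, are switched on by removal of a propeptide and are held in check by TIMPs, which bind the active site. ADAM proteases are transmembrane relatives that release the outer part of membrane proteins such as pro-TNF. In brain ischemia, microglia and infiltrating myeloid cells are known sources of these enzymes, which have been tied to opening of the blood-brain barrier.

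Total counts per library ranged from 19521877 to 27288843. Levels are given as raw counts and as CPM, which are counts divided by the effective library size (library total times TMM factor) and scaled to a common total. Comparisons between genes use CPM per kb of exon. Of all genes, 11626 reached 0.5 CPM in at least 3 libraries and entered 1 edgeR model over the 12 libraries, in which a gene is called at a Benjamini-Hochberg adjusted p under 0.05. The targeted gene Anxa2 was expressed in the shCtrl line at 171.7 ± 6.36 (untreated) and 278.9 ± 24.3 CPM (OGD/R), and in the shAnxa2 line at 40.4 ± 4.86 and 19.6 ± 1.26 CPM (mean ± SD, n = 3 each). Each shAnxa2 library lay below the shCtrl libraries of the same treatment, with 3938, 4744 and 4806 counts in shCtrl-CTRL, 6414, 7717 and 5685 in shCtrl-OGDR, 715, 922 and 1052 in shAnxa2-CTRL and 357, 505 and 425 in shAnxa2-OGDR. Over all genes tested, the OGD/R change had opposite signs in the lines for 82.0%. Anxa2 itself rose after OGD/R in shCtrl cells (log2 fold change 0.70, SE 0.0643, edgeR adjusted p = 1.21e-09) and fell in shAnxa2 cells (−1.04, SE 0.0827, adjusted p = 3.05e-10). Anxa2 checks the label of the line, and no targeted gene checks the label of the treatment. If the treatment labels of the shAnxa2 libraries were exchanged, every OGD/R change given below for that line would change its sign, and its comparisons with shCtrl would be with the other treatment. All 11 microglia and macrophage markers were expressed, with a summed level of 1597 to 2007 CPM. Markers of neutrophils, a known source of Mmp8 and Mmp9, summed to at most 0.534 CPM with Ly6g and S100a9 at 0 in every library, and fibroblast markers to at most 0.46 CPM with Dcn and Lum at 0. Astrocyte and neuron markers summed to at most 0.97 and 0.919 CPM. Of the oligodendrocyte markers, Mog was at 0 and Mbp had group means of 3.84 CPM in shCtrl-CTRL, 5.10 in shCtrl-OGDR, 4.79 in shAnxa2-CTRL and 3.25 in shAnxa2-OGDR, and its part in the results was not tested. In bulk RNA, fewer cells that make a transcript and less of it per cell cannot be told apart.

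Mmp12, Mmp13 and Mmp8 lie in 1 cluster on chromosome 9, and their promoters are shown because Mmp12 and Mmp13 had the largest fitted folds of the tested members. RefSeq held promoters, from 250 bases before to 50 bases after a start, for 8 of the 10 genes in its GRCm38.p6 coordinates. Mmp9 and Mmp19 had no entry and Mmp12 had 2. Capitals mark the AP-1 motif (TGACTCA or TGAGTCA) and the PEA3 motif of ETS factors (AGGAAG or CTTCCT), searched on both strands, and the runs read 5′ to 3′ on the plus strand, which is the strand of the genes.
Mmp13, chr9:7272264-7272563: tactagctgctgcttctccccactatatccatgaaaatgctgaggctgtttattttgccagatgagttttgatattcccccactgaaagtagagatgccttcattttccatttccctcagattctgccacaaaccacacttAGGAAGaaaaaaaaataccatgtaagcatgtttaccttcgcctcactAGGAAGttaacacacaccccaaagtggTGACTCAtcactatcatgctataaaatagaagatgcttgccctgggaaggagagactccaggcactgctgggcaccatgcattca
Mmp12, upstream start, chr9:7344147-7344446: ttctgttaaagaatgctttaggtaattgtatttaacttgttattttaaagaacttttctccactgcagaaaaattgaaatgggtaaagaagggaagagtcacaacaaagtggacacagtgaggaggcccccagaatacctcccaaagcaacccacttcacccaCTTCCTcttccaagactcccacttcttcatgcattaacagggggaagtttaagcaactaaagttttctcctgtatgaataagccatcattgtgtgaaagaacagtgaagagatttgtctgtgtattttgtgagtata
Mmp12, downstream start, chr9:7347124-7347423: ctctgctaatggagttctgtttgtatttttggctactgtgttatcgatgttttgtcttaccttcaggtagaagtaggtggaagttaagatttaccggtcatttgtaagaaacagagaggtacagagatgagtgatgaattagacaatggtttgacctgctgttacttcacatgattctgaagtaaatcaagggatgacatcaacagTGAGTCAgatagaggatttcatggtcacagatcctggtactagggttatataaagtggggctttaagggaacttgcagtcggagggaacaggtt
Mmp8, chr9:7558179-7558478: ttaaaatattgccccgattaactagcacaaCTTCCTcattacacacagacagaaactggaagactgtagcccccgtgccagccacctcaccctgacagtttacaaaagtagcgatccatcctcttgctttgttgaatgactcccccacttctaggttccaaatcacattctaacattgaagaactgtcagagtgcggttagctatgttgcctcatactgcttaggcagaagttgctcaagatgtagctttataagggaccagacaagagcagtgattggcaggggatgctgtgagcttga
The AP-1 motif was found in the Mmp13 promoter, where its first base is at −35 from the start, and in the downstream Mmp12 promoter, at −44. Mmp13 also held 2 PEA3 motifs, at −109 and −62. The upstream Mmp12 promoter held PEA3 at −87 and an NF-κB motif at −129, and the Mmp8 promoter held PEA3 at −220 and no AP-1 motif. The TATA motif (TATAAA or TTTATA) was found in the Mmp13 promoter at −16, in the downstream Mmp12 promoter at 5 and in the Mmp8 promoter at −3, and it overlapped none of the marked motifs. Of the 9 promoters of the 8 genes, 2 held AP-1, 6 held PEA3, 1 held the NF-κB motif and 3 held the TATA motif. Among all 32851 promoters of the table, 5.20% held AP-1, 35.4% PEA3, 8.46% the NF-κB motif and 13.6% the TATA motif. These matches are descriptions of the sequence and no binding was measured.

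Per kb of exon, the ADAM genes and Timp2 were the highest of the 10, above the metalloproteinases and Timp1. Adam17, the TNF-alpha converting enzyme, had a mean over the 12 libraries of 52.6 CPM per kb (range 46.2 to 60.2), above every library of the next gene. Adam8, an ADAM of myeloid cells, had 18.4 CPM per kb (11.4 to 31.6) and overlapped Timp2, an inhibitor that also takes part in the activation of pro-MMP2, at 12.7 (9.83 to 15.4). Mmp19, a metalloproteinase found in macrophages and other tissues, followed at 1.45 CPM per kb (0.844 to 2.12), apart from the genes on either side of it. Mmp9 (gelatinase B) at 0.445, Mmp12 (macrophage elastase) at 0.386 and Mmp13 (collagenase 3) at 0.121 CPM per kb overlapped from each to the next. Mmp8 (neutrophil collagenase) at 0.108, Timp1 at 0.0486 and Mmp14 (membrane type 1 metalloproteinase) at 0.0433 CPM per kb were too rare to be tested.

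**Figure D1:**
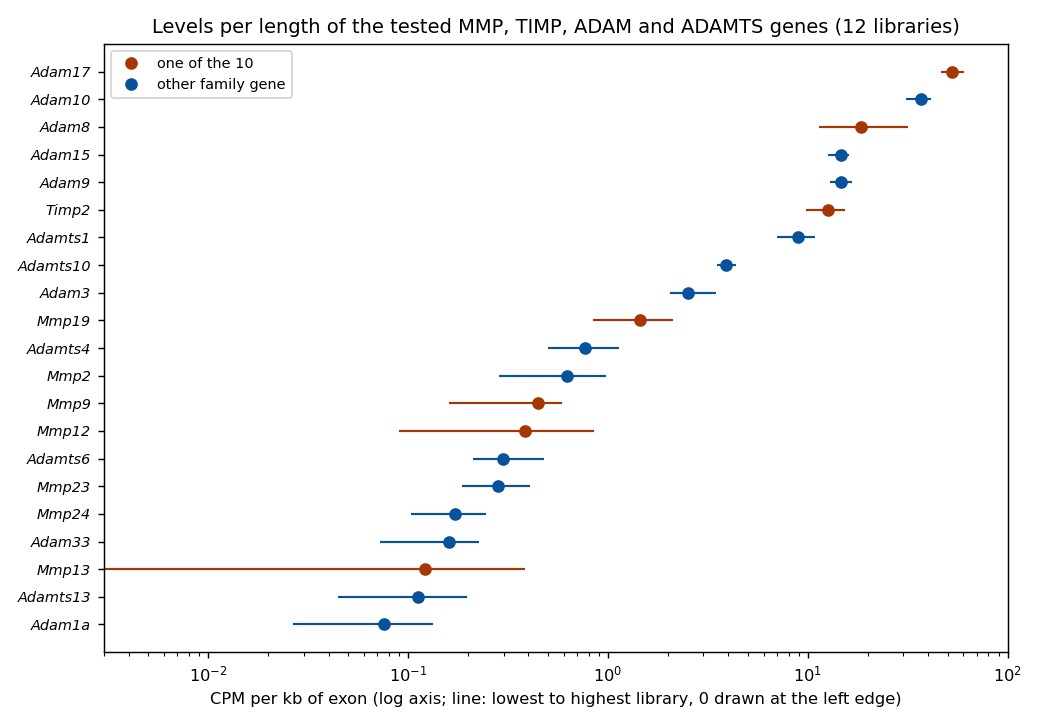
Level per length, in CPM per kb of exon on a log axis, of the tested genes of the metalloproteinase, TIMP, ADAM and ADAMTS families, with points for the mean of 12 libraries and lines from the lowest to the highest library. Adam17 leads at 52.6 CPM per kb, and 4 of the 7 tested members, Mmp19, Mmp9, Mmp12 and Mmp13, lie at 1.45 or below.

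The filter on low values left 7 of the 10 genes in the test. Mmp13 was just inside it, with at least 0.5 CPM of the library total in 4 libraries, of which 3 are the shCtrl-CTRL libraries where it is highest. Mmp14 was just outside it with 2 such libraries, and Mmp8 had 1 and Timp1 none. Counts of members that passed therefore include a gene that had to differ between groups.

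**Figure D2:**
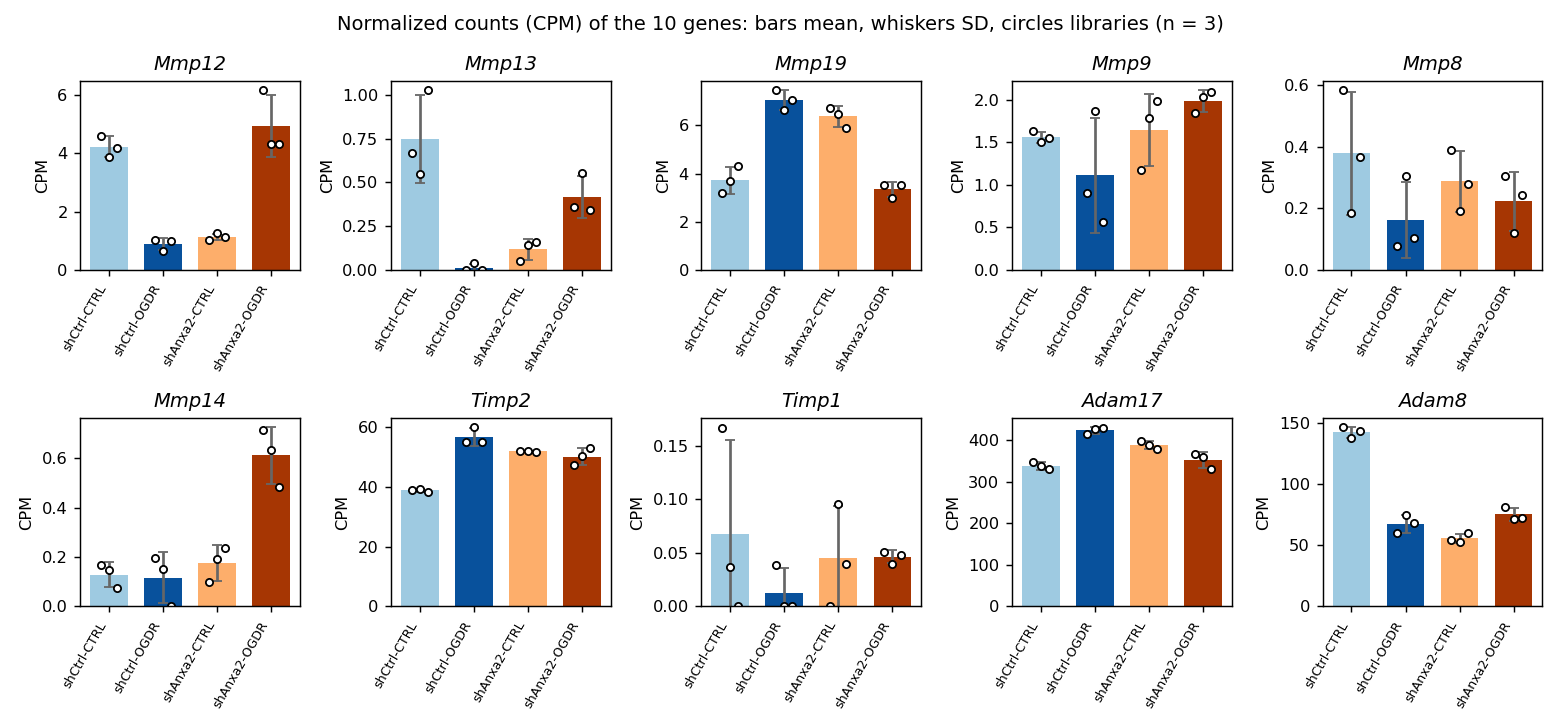
CPM of the 10 genes in the 4 groups, with bars for the mean of 3 libraries, whiskers for the SD and circles for the libraries, each panel on its own linear axis from 0. Mmp12 and Mmp13 were low in shCtrl-OGDR and shAnxa2-CTRL, where Mmp19 was high, and Adam8 was high in shCtrl-CTRL only.

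Among the metalloproteinases, Mmp12, which degrades elastin and is made mainly by macrophages, changed most clearly. Mmp12 (ENSMUSG00000049723, plus strand of chr9:7344381-7369499 in mm39) had 110, 106 and 114 counts in shCtrl-CTRL and 26, 17 and 19 in shCtrl-OGDR. In the shAnxa2 line it had 21, 26 and 28 counts untreated and 121, 109 and 89 after OGD/R. The 3 libraries of shCtrl-CTRL and of shAnxa2-OGDR were all high, those of the other groups all low, and no high library overlapped a low one. In CPM these levels were 4.22 ± 0.356 (SD, n = 3), 0.88 ± 0.201, 1.13 ± 0.113 and 4.94 ± 1.07. Mmp12 was 4.82-fold lower after OGD/R in shCtrl cells (log2 fold change −2.27, SE 0.221) and 4.33-fold higher after OGD/R in shAnxa2 cells (2.12, SE 0.213). Between the lines it was 3.72-fold lower in untreated shAnxa2 cells (−1.90, SE 0.213) and 5.61-fold higher in shAnxa2 cells after OGD/R (2.49, SE 0.221). The shCtrl-CTRL and shAnxa2-OGDR levels overlapped each other. The gene overlaps Mmp1b on the minus strand by 1261 bases, and Mmp1b had no counts.

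Mmp13, which cuts fibrillar collagen, was rarer and had the same high and low groups. Mmp13 (ENSMUSG00000050578, plus strand of chr9:7272514-7283331 in mm39) had 16, 15 and 28 counts in shCtrl-CTRL and 0, 1 and 0 in shCtrl-OGDR. It had 1, 3 and 4 counts in shAnxa2-CTRL and 7, 14 and 7 in shAnxa2-OGDR. In CPM its libraries did not overlap between any of the groups except shCtrl-CTRL and shAnxa2-OGDR. The lowest shAnxa2-CTRL library and the highest shCtrl-OGDR library each held 1 count, so those groups were apart only by library depth. Because shCtrl-OGDR holds 1 count in all, the fold is given as the ratio of summed counts with its exact 95% counting interval, which covers counting error only. In shCtrl cells the untreated libraries held 59 counts against 1, a ratio of 53.6 after scaling for depth (interval 9.26 to 2153). In shAnxa2 cells OGD/R went with 28 counts against 8, a ratio of 3.56 (1.58 to 9.03). Untreated, the shCtrl line was 6.24 times higher (2.97 to 15.1), and after OGD/R the shAnxa2 line was 30.5 times higher (5.05 to 1248). The fitted log2 fold changes of −5.29 (SE 0.783) and 4.48 (SE 0.909) against shCtrl-OGDR turn on that count, becoming −7.14 and 6.33 without shCtrl-OGDR replicate 2, which holds it.

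Mmp19 ran the other way. Mmp19 (ENSMUSG00000025355, plus strand of chr10:128626779-128636693) had 76, 101 and 117 counts in shCtrl-CTRL and 191, 174 and 138 in shCtrl-OGDR, with 138, 135 and 148 in shAnxa2-CTRL and 69, 75 and 73 in shAnxa2-OGDR. In CPM it was high in shCtrl-OGDR (7.06 ± 0.415, SD, n = 3) and shAnxa2-CTRL (6.38 ± 0.448) and low in shCtrl-CTRL (3.73 ± 0.563) and shAnxa2-OGDR (3.35 ± 0.318), with no overlap between the high and the low groups. OGD/R went with a 1.89-fold higher level in shCtrl cells (log2 fold change 0.92, SE 0.137) and a 1.91-fold lower level in shAnxa2 cells (−0.93, SE 0.147). The shAnxa2 line was 1.70-fold higher untreated (0.77, SE 0.14) and 2.12-fold lower after OGD/R (−1.08, SE 0.144). Mmp19 overlaps Tmem198b of the opposite strand by 789 bases, and that gene held up to 246 counts in a library. Whether counting used the strand is not given in the sources used here.

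Mmp9, a gelatinase that cuts basement membrane collagen, varied between libraries of the same group. Mmp9 (ENSMUSG00000017737, plus strand of chr2:164782700-164797770) had 39, 41 and 42 counts in shCtrl-CTRL, 23, 49 and 11 in shCtrl-OGDR, 24, 37 and 50 in shAnxa2-CTRL and 36, 51 and 43 in shAnxa2-OGDR. Libraries overlapped in all 4 comparisons, and the shCtrl-OGDR libraries ranged from 0.564 to 1.87 CPM. The log2 fold changes of OGD/R were −0.43 (SE 0.303) in shCtrl and 0.26 (SE 0.286) in shAnxa2 cells, and those of shAnxa2 against shCtrl 0.10 (SE 0.289) untreated and 0.79 (SE 0.3) after OGD/R. The values that use shCtrl-OGDR depended on each of its libraries. Without replicate 1, 2 or 3 of that group, the OGD/R change in shCtrl cells was −0.27, −1.05 or −0.16, and the difference between the lines after OGD/R was 0.62, 1.40 or 0.51.

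Mmp14 and Mmp8 were near the limit of detection. Mmp14 (ENSMUSG00000000957, plus strand of chr14:54669069-54682821), a membrane-anchored activator of pro-MMP2, had 4, 4 and 2 counts in shCtrl-CTRL, 5, 4 and 0 in shCtrl-OGDR, 2, 4 and 6 in shAnxa2-CTRL and 14, 16 and 10 in shAnxa2-OGDR. The shAnxa2-OGDR libraries were above all others, and the other groups overlapped. Its summed counts after OGD/R were, scaled for depth, 3.39 times those of untreated shAnxa2 cells (exact 95% interval 1.74 to 7.09) and 4.85 times those of shCtrl cells after OGD/R (2.32 to 11.4). Mmp8 (ENSMUSG00000005800, plus strand of chr9:7558457-7568486) had 14, 5 and 10 counts, then 2, 8 and 2, 8, 4 and 7, and 6, 3 and 5 in shCtrl-CTRL, shCtrl-OGDR, shAnxa2-CTRL and shAnxa2-OGDR. Its groups overlapped throughout. The summed counts of Mmp8 in untreated shCtrl cells were 2.20 times those after OGD/R (1.09 to 4.73). In shAnxa2 cells this ratio was 1.34 (0.635 to 2.88). Untreated, shCtrl cells had 1.29 times the level of shAnxa2 cells (0.70 to 2.44). After OGD/R, shAnxa2 cells had 1.27 times that of shCtrl cells (0.546 to 3.01).

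The summed level of the 6 metalloproteinase genes varied less than Mmp12 or Mmp19 alone. It was 10.8 ± 0.77 CPM (SD, n = 3) for shCtrl-CTRL, 9.34 ± 0.549 for shCtrl-OGDR, 9.73 ± 0.294 for shAnxa2-CTRL and 11.5 ± 1.21 for shAnxa2-OGDR. The share of Mmp12 in these counts had a median of 39.0% in shCtrl-CTRL and 40.7% in shAnxa2-OGDR, and of 10.5% in shCtrl-OGDR and 11.5% in shAnxa2-CTRL. Mmp19 took 37.1% and 28.0% in the first pair of groups and 77.3% and 64.6% in the other. Mmp9 stayed between 6.47% and 20.6% in every library.

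**Figure D3:**
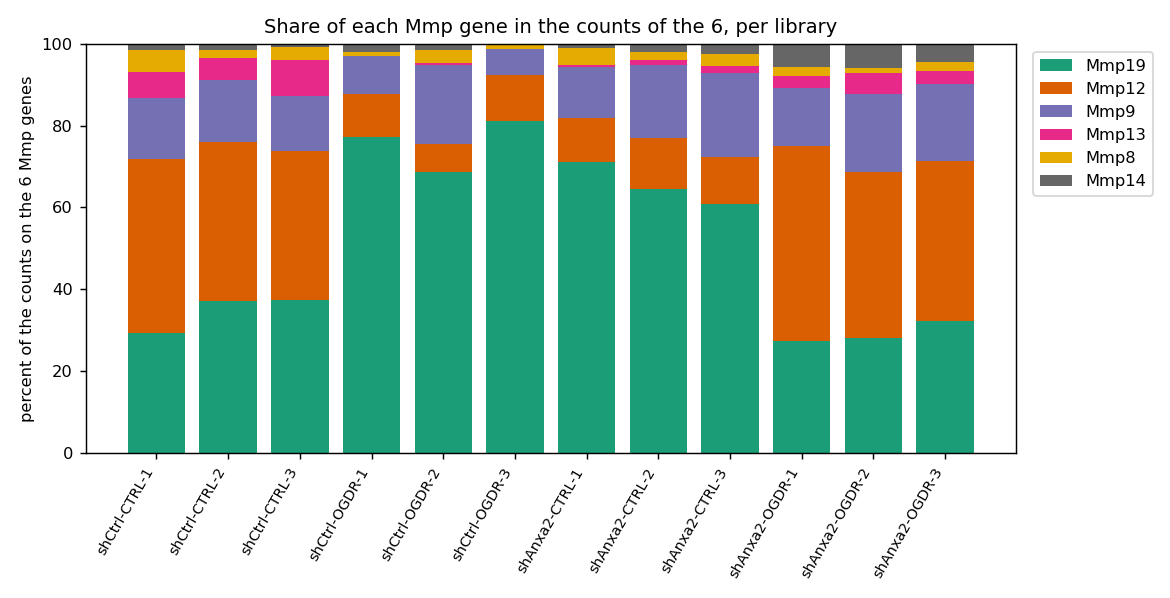
Share, in percent, of each gene in the raw counts on the 6 metalloproteinase genes, 1 stacked bar per library, not divided by gene length. In the shCtrl-CTRL and shAnxa2-OGDR libraries Mmp12 held 36.4% to 47.8%, and in the shCtrl-OGDR and shAnxa2-CTRL libraries 6.72% to 12.4%.

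Of the inhibitors, Timp2 was abundant and moved little. Timp2 (ENSMUSG00000017466, minus strand of chr11:118191895-118246566) had 931, 1071 and 1042 counts in shCtrl-CTRL, 1406, 1573 and 1072 in shCtrl-OGDR, 1061, 1082 and 1298 in shAnxa2-CTRL and 925, 1261 and 1091 in shAnxa2-OGDR. In CPM, shCtrl-CTRL was the lowest group (38.8 ± 0.478, SD, n = 3) and shCtrl-OGDR the highest (56.7 ± 2.94), both apart from the rest, while shAnxa2-CTRL (51.8 ± 0.259) and shAnxa2-OGDR (50.1 ± 2.86) overlapped. Timp2 was 1.46-fold higher after OGD/R in shCtrl cells (log2 fold change 0.55, SE 0.0581), against −0.05 (SE 0.0584) in shAnxa2 cells. In untreated cells the shAnxa2 line was 1.34-fold higher (0.42, SE 0.0587), and after OGD/R it was 1.13-fold lower (−0.18, SE 0.0578). Timp2 overlaps Cep295nl of the same strand by 10141 bases, and that gene had 267 counts in all libraries together. Timp1 (ENSMUSG00000001131, plus strand of chrX:20736405-20740974), an inhibitor with high affinity for MMP9, had 12 counts in all libraries together and at most 4 in 1 library. It lies wholly within Syn1 of the opposite strand, which itself had 132 counts, so no change of Timp1 was detectable at this depth.

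Adam17, which sheds TNF, its receptors and EGF receptor ligands, was the most abundant of the 10 genes, and its fold changes were at most 1.25. Adam17 (ENSMUSG00000052593, minus strand of chr12:21373510-21423633) had 8350, 9205 and 8984 counts in shCtrl-CTRL, 10594, 11218 and 8400 in shCtrl-OGDR, 8144, 8062 and 9547 in shAnxa2-CTRL and 7209, 9038 and 6834 in shAnxa2-OGDR. Its CPM fell in the order shCtrl-OGDR (424.3 ± 8.67, SD, n = 3), shAnxa2-CTRL (388.5 ± 9.52), shAnxa2-OGDR (352.9 ± 18.99) and shCtrl-CTRL (338.8 ± 9.38), and only the last pair overlapped. OGD/R went with a log2 fold change of 0.33 (SE 0.0482) in shCtrl cells and −0.14 (SE 0.0483) in shAnxa2 cells. The shAnxa2 line differed from shCtrl by 0.20 (SE 0.0482) untreated and −0.27 (SE 0.0482) after OGD/R. Adam17 overlaps Iah1 of the opposite strand by 311 bases, and that gene held up to 1660 counts in a library.

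Adam8, a leukocyte ADAM linked to cell migration, had a pattern of its own. Adam8 (ENSMUSG00000025473, minus strand of chr7:139558845-139572475) had 3505, 3747 and 3896 counts in shCtrl-CTRL, 1538, 1952 and 1328 in shCtrl-OGDR, 1112, 1101 and 1512 in shAnxa2-CTRL and 1600, 1802 and 1490 in shAnxa2-OGDR. At 142.3 ± 4.62 CPM (SD, n = 3) the untreated shCtrl libraries were far above the others, which had 67.6 ± 7.19, 55.8 ± 3.75 and 75.2 ± 5.61 CPM in the same order. Adam8 was 2.11-fold lower after OGD/R in shCtrl cells (log2 fold change −1.07, SE 0.0664) and 2.55-fold lower in untreated shAnxa2 than in untreated shCtrl cells (−1.35, SE 0.0677). After OGD/R it was 1.34-fold higher in shAnxa2 cells than without (0.43, SE 0.0694), and the lines then overlapped, with a difference of 0.15 (SE 0.0683). Unlike Mmp12, Adam8 in shAnxa2-OGDR did not reach the level of shCtrl-CTRL.

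**Figure D4:**
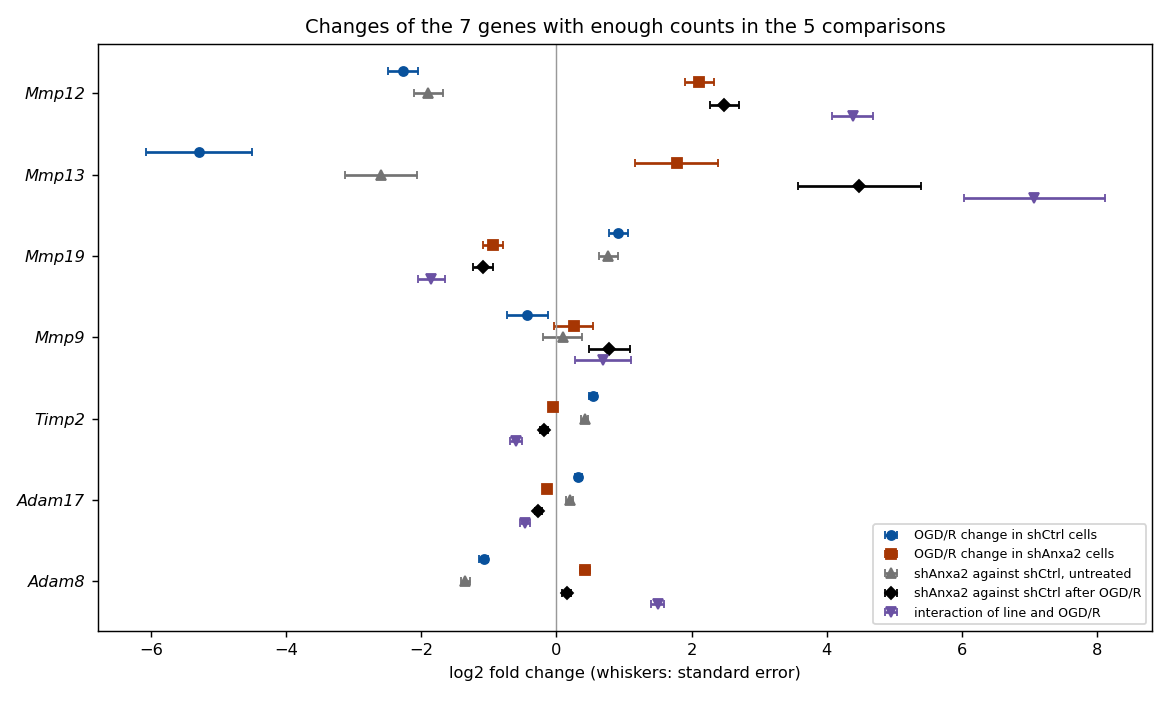
log2 fold changes of the 7 tested members in the 5 comparisons, with whiskers for the standard error. Fitted OGD/R changes have opposite signs in the lines for each gene, from −2.27 and 2.12 for Mmp12 to 0.55 and −0.05 for Timp2. For Mmp9 in both lines and for Timp2 in shAnxa2 cells the libraries with and without OGD/R overlapped and no change was called. The Mmp13 values that use shCtrl-OGDR rest on 1 count in that group.

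Counted over the 7 tested members, OGD/R in shCtrl cells called 3 higher (Mmp19, Timp2 and Adam17), as 32.4% of all genes tested, and 3 lower (Mmp12, Mmp13 and Adam8), as 31.0% of all genes. In shAnxa2 cells 3 were called higher (Mmp12, Mmp13 and Adam8; 28.2% of all genes) and 2 lower (Mmp19 and Adam17; 26.8%). Untreated shAnxa2 cells had 3 members called higher than in shCtrl (Mmp19, Timp2 and Adam17; 29.5% of all genes) and 3 lower (Mmp12, Mmp13 and Adam8; 29.7%). After OGD/R 3 were called higher (Mmp12, Mmp13 and Mmp9; 33.8%) and 3 lower (Mmp19, Timp2 and Adam17; 34.2%), of which Mmp9 had libraries that overlapped. The difference between the OGD/R changes was called positive for 3 members (Mmp12, Mmp13 and Adam8; 34.9% of all genes) and negative for 3 (Mmp19, Timp2 and Adam17; 35.1%). Because the members were chosen with these values known, the calls are counts for comparison with all genes and not evidence about the members. With a log2 fold change of at least 1 also required, OGD/R in shCtrl cells left 3 members lower and 0 higher. By this rule 2.08% of all genes were lower. In shAnxa2 cells it left 2 higher (0.809% of all genes) and 0 lower. Between the lines it left 3 lower and 0 higher untreated, and 2 higher and 1 lower after OGD/R. For the difference of the OGD/R changes it left 3 higher and 1 lower. Where no share of all genes is printed beside a count by this rule, the count cannot be set against all genes. In every comparison, between the lines as well as for OGD/R, these counts include Mmp13, which passed the filter mainly through shCtrl-CTRL. They are likewise no evidence about the members. The median log2 fold change of the members was −0.43 for OGD/R in shCtrl cells, beside 0.01 over all genes, and 0.26 in shAnxa2 cells, beside 0.00. For untreated cells and cells after OGD/R, the medians of shAnxa2 against shCtrl were 0.10 and 0.15, beside 0.00 and 0.00. All 7 members had OGD/R changes of opposite sign in the lines, as did 82.0% of all genes, and for 5 (Mmp12, Mmp13, Mmp19, Adam17 and Adam8) the libraries did not overlap in either line, as for 46.6% of all genes. These comparisons share groups, since each group serves in 1 OGD/R comparison and in 1 comparison of lines.

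Across the 12 libraries, Mmp12 and Mmp13 varied together (Pearson r 0.89 on log2 of CPM plus 0.1) and against Mmp19 (r −0.95 and −0.88). Timp2 followed Adam17 (r 0.77) and ran against Adam8 (r −0.88), while Mmp9 and Adam8 had r 0.14. The points are 4 groups of 3 libraries, so these values mostly restate the group means. Among 10546 named genes averaging 1 CPM or more, the patterns most like that of Mmp12 were those of Mrpl47 (r 0.99), Gtf3c4 (0.99) and Tyw1 (0.98). Those most like Mmp13 were Cse1l, Cct6a and Bzw1 (r 0.98 each), but with 1 CPM added in place of 0.1 they were Cse1l, Nanos1 and Ppp4r3a (0.97, 0.96 and 0.955). Fam20c, Gadd45b and Map2k5 were most like Timp2 (0.96, 0.96 and 0.95), Igbp1, Anxa4 and Rfx5 most like Adam17 (0.97, 0.97 and 0.96) and Numb, Nab2 and Sec23ip most like Adam8 (0.99, 0.98 and 0.98). Mmp9 had no close match, with Igsf11, Spout1 and Tmem42 at 0.87, 0.87 and 0.86, and with 1 CPM added Zscan25 took the place of Tmem42.

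Genes around the chromosome 9 cluster did not all move as Mmp12 and Mmp13 did. Within 500000 bases of the 3 members there were 17 genes, of which 10 are metalloproteinase genes and 7 were tested. Mmp1a, Mmp1b, Mmp3, Mmp7 and Mmp20 had no count in any library, where 3 counts would be 0.11 to 0.154 CPM of a library, and Mmp10 had 52 counts in all. On the side of Mmp13, Dync2h1, a dynein motor of cilia, rose after OGD/R in shCtrl cells (log2 fold change 0.97, SE 0.0862, edgeR adjusted p = 6.27e-10) and fell in shAnxa2 cells (−1.03, SE 0.0962, adjusted p = 4.11e-09). Dcun1d5, between Dync2h1 and Mmp13, fell in shCtrl cells (−0.28, SE 0.0628, adjusted p = 0.000407) and had 0.01 (adjusted p = 0.946) in shAnxa2 cells. On the other side, Birc3, an inhibitor of apoptosis, rose in shCtrl cells (1.21, SE 0.0627, adjusted p = 4.95e-14) and fell in shAnxa2 cells (−0.73, SE 0.063, adjusted p = 1.19e-09), and Birc2 did likewise by 0.49 and −0.49. Tmem123 shared the signs of Mmp12 at −0.44 and 0.18.

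**Figure D5:**
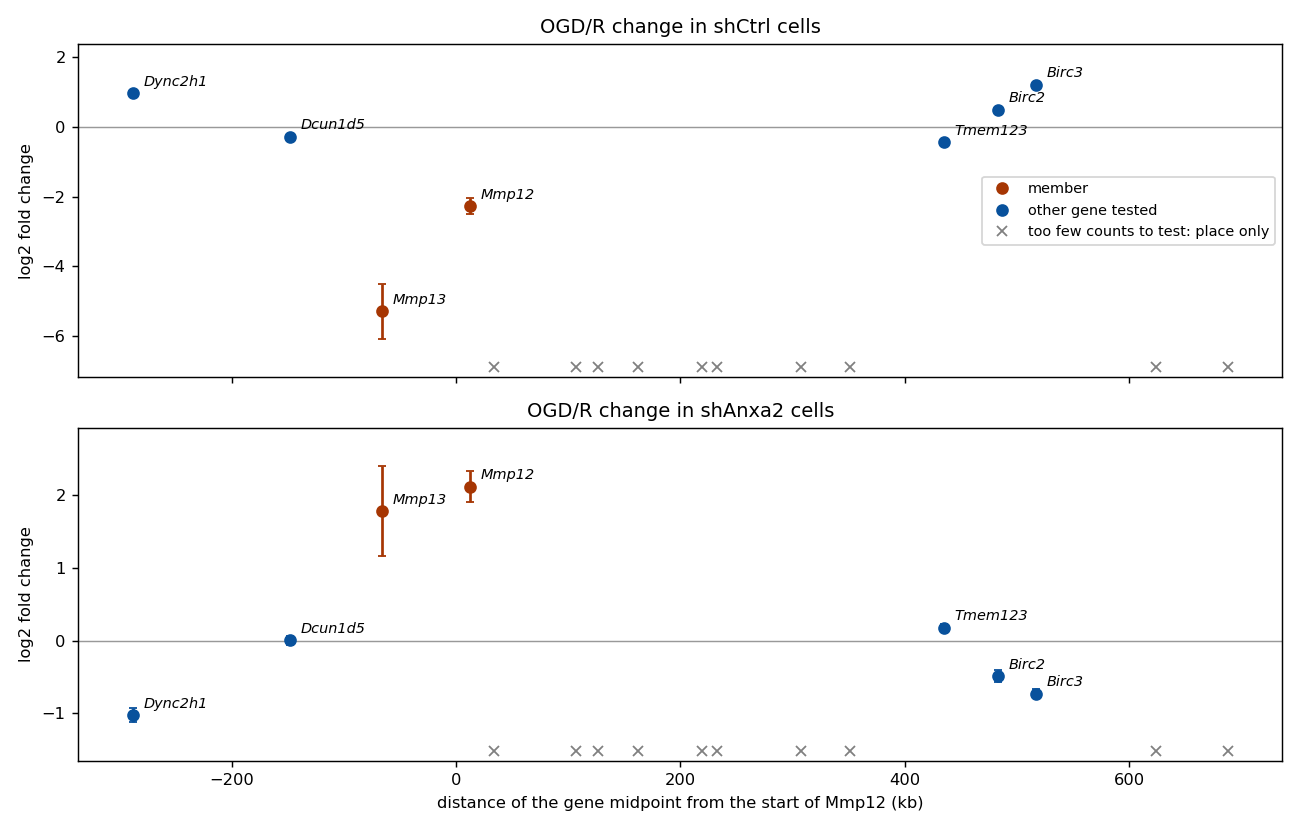
log2 fold changes after OGD/R of the genes around the chromosome 9 cluster, in shCtrl cells (top) and shAnxa2 cells (bottom), by distance of each gene's midpoint from the start of Mmp12 in kb, with whiskers for the standard error and crosses for the place of untested genes. Mmp12 (−2.27 and 2.12) and Mmp13 (−5.29 and 1.78) have signs opposite to those of Dync2h1 (0.97 and −1.03) and Birc3 (1.21 and −0.73).

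The rest of the families, 70 further genes named Mmp, Timp, Adam or Adamts, was mostly below the filter on low values. No count was found for 27, a further 29 had counts but too few to be tested, and 14 were tested, made up of 3 metalloproteinase, 6 ADAM and 5 ADAMTS genes. OGD/R in shCtrl cells called 4 higher (Mmp2, Mmp24, Adamts4 and Adamts13) and 1 lower (Adamts1), with a median log2 fold change of 0.01. In shAnxa2 cells 2 were higher (Adam15 and Adamts1) and 6 lower, with a median of −0.06. Untreated, 5 were higher and 5 lower in shAnxa2 than in shCtrl cells (median −0.11), and after OGD/R 1 was higher (Adamts1) and 3 lower (Adam9, Adam10 and Adamts13; median −0.07). Genes of this list other than Mmp2 are named because the counts are small, after their values were seen. For comparison with this and the later lists, 32.4% of all genes were called higher and 31.0% lower for OGD/R in shCtrl cells. In shAnxa2 cells these shares were 28.2% and 26.8%. Between the lines they were 29.5% and 29.7% untreated and 33.8% and 34.2% after OGD/R. The inhibitors Timp3 and Timp4 had 1 and 31 counts in all, so Timp2 made up nearly all TIMP counts.

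Mmp2, gelatinase A, which is activated at the cell surface by MMP14 with TIMP2, was the 1 gene of this list named by size. It had 31, 27 and 26 counts in shCtrl-CTRL, 63, 42 and 48 in shCtrl-OGDR, 62, 63 and 83 in shAnxa2-CTRL and 42, 58 and 34 in shAnxa2-OGDR. The shCtrl-CTRL libraries were the lowest and did not overlap any other group. Mmp2 rose after OGD/R in shCtrl cells (log2 fold change 1.00, SE 0.239, edgeR adjusted p = 0.000792) and fell in shAnxa2 cells (−0.61, SE 0.212, adjusted p = 0.0173). The difference between these changes was −1.62 (SE 0.32, adjusted p = 8.89e-05). Untreated shAnxa2 cells had more than shCtrl cells (1.54, SE 0.228, adjusted p = 3.42e-06), and after OGD/R the difference was −0.08 (SE 0.222, adjusted p = 0.769). Adam10, the other main sheddase and the gene next below Adam17 in level per length, had −0.10 (SE 0.0488, adjusted p = 0.0879) in shCtrl cells after OGD/R and fell by 0.17 in shAnxa2 cells (SE 0.0493, adjusted p = 0.00581).

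A list of 17 genes for activation, docking and clearance of these enzymes had 10 tested members. This list and those of substrates and of AP-1 and ETS factors below were drawn up with earlier results of these data known. Their adjusted p-values are therefore not independent of the choice of genes. OGD/R called 4 higher and 4 lower in shCtrl cells (median log2 fold change 0.01) and 6 higher and 3 lower in shAnxa2 cells (0.18). Between the lines, 4 were higher and 5 lower untreated (−0.19) and 4 higher and 4 lower after OGD/R (−0.04). Furin, the convertase that removes the propeptides of ADAM17 and MMP14, went from 95.2 ± 4.04 to 274.6 ± 2.46 CPM with OGD/R in the shCtrl line and from 139.2 ± 0.244 to 67.8 ± 3.16 CPM in the shAnxa2 line (SD, n = 3). It rose after OGD/R in shCtrl cells (1.53, SE 0.0467, edgeR adjusted p = 5.62e-18) and fell in shAnxa2 cells (−1.04, SE 0.0483, adjusted p = 5.06e-14). Lcn2, lipocalin 2, which binds and stabilizes MMP9, rose in shCtrl cells (2.93, SE 0.198, adjusted p = 5.51e-12) and fell in shAnxa2 cells (−1.95, SE 0.164, adjusted p = 7.65e-10), and untreated shAnxa2 cells had more of it than shCtrl cells (3.54, SE 0.191, adjusted p = 1.41e-13). Plaur, the urokinase receptor of the plasmin pathway that activates several metalloproteinases, fell in shCtrl cells (−1.02, SE 0.0779, adjusted p = 4.87e-11) and rose in shAnxa2 cells (0.86, SE 0.0762, adjusted p = 1.83e-09).

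Of 18 substrates of ADAM17 and ADAM10, 11 were tested. OGD/R called 3 higher and 6 lower in shCtrl cells (median log2 fold change −0.21) and 7 higher and 4 lower in shAnxa2 cells (0.30). Between the lines, 5 were higher and 5 lower untreated (−0.21) and 7 higher and 4 lower after OGD/R (0.31). Tnf, the substrate that gave ADAM17 its older name, went from 47.7 ± 4.23 to 28.5 ± 3.13 CPM with OGD/R in the shCtrl line and from 83.6 ± 4.35 to 108.0 ± 10.3 CPM in the shAnxa2 line (SD, n = 3). It fell after OGD/R in shCtrl cells (−0.74, SE 0.0814, edgeR adjusted p = 2.47e-08), rose in shAnxa2 cells (0.37, SE 0.0732, adjusted p = 0.000165) and after OGD/R was higher in the shAnxa2 line (1.92, SE 0.0796, adjusted p = 6.13e-16). Hbegf, an EGF receptor ligand shed by ADAM17, fell in shCtrl cells (−1.35, SE 0.105, adjusted p = 6.99e-11) and rose in shAnxa2 cells (0.64, SE 0.0944, adjusted p = 4.12e-06). Mertk, a receptor for dying cells that ADAM17 sheds, was lower in the shAnxa2 line after OGD/R (−1.01, SE 0.123, adjusted p = 9.62e-08). No shedding was measured, so these are levels of transcripts.

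Most extracellular matrix substrates were below the filter on low values, with 4 of 18 tested. Among the 4, Spp1 (osteopontin) was abundant at group means of 6653 to 8614 CPM, and Lamc1, a laminin chain, had 168 to 223 CPM. OGD/R called 1 higher (Spp1) and 2 lower (Lamc1 and Col4a2) in shCtrl cells (median −0.35), and 1 higher (Lamc1) and 1 lower (Spp1) in shAnxa2 cells (0.07). Between the lines 1 was higher and 1 lower both untreated (median 0.10) and after OGD/R (0.29). Col4a2, a collagen of basement membranes, fell in shCtrl cells (−0.77, SE 0.272, edgeR adjusted p = 0.017) and after OGD/R was higher in the shAnxa2 line (1.04, SE 0.27, adjusted p = 0.00156).

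AP-1 and ETS factors, the families named for the motifs marked in the promoters above, had 15 of 17 genes tested. OGD/R called 5 higher and 8 lower in shCtrl cells (median log2 fold change −0.25) and 6 higher and 5 lower in shAnxa2 cells (0.00). Between the lines, 6 were higher and 6 lower untreated (−0.06) and 8 higher and 5 lower after OGD/R (0.13). Fos, a partner of JUN in AP-1, had 318, 400 and 348 counts in shCtrl-CTRL, 58, 81 and 54 in shCtrl-OGDR, 73, 96 and 93 in shAnxa2-CTRL and 163, 159 and 136 in shAnxa2-OGDR. It fell after OGD/R in shCtrl cells (−2.32, SE 0.144, edgeR adjusted p = 1.15e-12) and rose in shAnxa2 cells (0.83, SE 0.149, adjusted p = 4.77e-05). Etv5, an ETS factor of the PEA3 group, fell in shCtrl cells (−1.33, SE 0.0816, adjusted p = 1.01e-12) and rose in shAnxa2 cells (0.44, SE 0.0809, adjusted p = 6.17e-05). Its relative Etv4 fell in both lines (−0.64, SE 0.159, adjusted p = 0.00115, and −0.71, SE 0.117, adjusted p = 1.73e-05). Batf, an AP-1 factor of immune cells, rose in shCtrl cells (0.98, SE 0.104, adjusted p = 1.47e-08) and fell in shAnxa2 cells (−0.81, SE 0.103, adjusted p = 4.45e-07). Etv4, Ets1 and Ets2 had larger log2 fold changes between the lines than with OGD/R. Etv4 was higher in shAnxa2 cells by 1.79 (SE 0.126, adjusted p = 1.8e-11) untreated and 1.73 (SE 0.146, adjusted p = 2.05e-10) after OGD/R. Ets1 was lower in shAnxa2 cells, by a log2 fold change of −1.86 (SE 0.336, adjusted p = 4.38e-05) untreated and −3.09 (SE 0.35, adjusted p = 2.98e-08) after OGD/R, and Ets2 was higher by 1.03 (SE 0.048, adjusted p = 9.78e-15) and 1.31 (SE 0.0489, adjusted p = 1.01e-16). What part these factors have in the members' levels was not tested.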

How the data were processed

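RNA of 12 BV2 cultures was sequenced from NEBNext Ultra libraries. The authors deposited 1 table of raw read counts for 21834 protein-coding genes, with a second block of 12 columns of a size-factor-normalized signal, not used here. The submitters' processing notes name HISAT2 2.0.4 and mm39, whereas the methods of the study, written for hippocampi, name Tophat and HTSeq, and the counter used for these cells is not given in the sources used here. Multimapping and strand rules are likewise not given.

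Counts were fitted with edgeR 4.0.16 in R 4.3.3 (TMM, a minimum of 0.5 CPM in 3 libraries, 11626 genes, quasi-likelihood test, 4 group means, Benjamini-Hochberg). The common biological coefficient of variation was 5.36%. SE is the log2 fold change divided by the square root of F. Exon lengths, used for CPM per kb, come from GENCODE vM21 by gene ID and were found for 21780 genes. Promoters come from RefSeq GRCm38.p6, another build than mm39, and no coordinates were converted. The members, lists and tests were chosen with earlier results of these data known. Genes beyond the members were named by rule, as those of a list with an adjusted p under 0.05, a log2 fold change of 1 or more in size in a pairwise comparison and a mean of at least 1 CPM, at most 6 a list by size, plus the 3 genes of most like pattern per member. Those for Mmp19 are not reported here. Alternatives were median-of-ratios and upper-quartile factors, no filter, 1 CPM, DESeq2 1.42.0, limma-voom (limma 3.58.1), the compared groups alone, a replicate block and leaving out each library. Only the main edgeR fit and its limma-voom and DESeq2 alternatives were run on simulated counts. Python 3.11.15 drew the plots.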

Additional observations from a re-analysis of the deposited data

Results flagged for a closer look

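For 5 members all OGDR libraries lay to one side of all CTRL libraries in the shCtrl line and to the other side in the shAnxa2 line. The difference between the log2 fold changes, shAnxa2 minus shCtrl, was 4.38 for Mmp12, 7.07 for Mmp13, −1.85 for Mmp19, −0.46 for Adam17 and 1.501 for Adam8. No p is given for these differences, because the members were chosen with their values known. The Mmp13 value rests on 1 count in shCtrl-OGDR. Among all genes tested, 46.6% had such a switch without overlap. Mmp2, which was not among the members, had a tested difference of −1.62 (edgeR adjusted p = 8.89e-05). It was the family gene named by size and not the only one with such a difference. Adamts13, Adamts4 and Mmp24, which did not meet the naming rule, had −2.76, −1.20 and −1.02 (edgeR adjusted p = 0.000236, 0.000238 and 0.0437). Groups of 3 libraries are too small for the test of single outlying libraries.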

How the results depend on the processing

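Counts of all genes called stayed within 1.5 times their main value under every alternative, and 196 of 200 such values and family counts did so. With a filter of 1 CPM, which removes genes, the other family genes called were 3 in place of 5 for OGD/R in shCtrl cells and 4 in place of 7 for the difference between the lines' OGD/R changes, and Mmp13 could not be fitted. Leaving out 1 library at a time gave 5 to 8 other family genes called for OGD/R in shAnxa2 cells, with 5 without shAnxa2-CTRL replicate 3 and 5 without shAnxa2-OGDR replicate 3. The cause was not tested. The members kept their signs in every alternative, except Mmp9 in untreated cells, which ran from −0.07 to 0.28 on the log2 scale. The spread between replicates was exceeded by 15 member values and not by 681. They were Mmp13 (−7.14 to −4.60 for OGD/R in shCtrl cells, 3.84 to 6.33 between the lines after OGD/R, 6.35 to 8.92 for the difference of the OGD/R changes), Mmp9 without shCtrl-OGDR replicate 2, and Timp2 and Adam17, whose difference of OGD/R changes was −0.67 and −0.54 with upper-quartile factors. Calls were lost by Mmp13 for OGD/R in shAnxa2 cells without shAnxa2-CTRL replicate 1 (1.45) or shAnxa2-OGDR replicate 2 (1.49), by Adam17 there without shAnxa2-CTRL replicate 1 (−0.12) or shAnxa2-OGDR replicate 3 (−0.10), and between the lines after OGD/R by Timp2 without shCtrl-OGDR replicate 2 (−0.13) or shAnxa2-OGDR replicate 1 (−0.14) and by Mmp9 without shCtrl-OGDR replicate 1 or 3 or shAnxa2-OGDR replicate 2 or 3 (0.51 to 0.76). Without shCtrl-OGDR replicate 2, Mmp9 was called for OGD/R in shCtrl cells (−1.05) and for the difference of OGD/R changes (1.30). Adam8 between the lines after OGD/R, not called in the fit reported, was called under 6 alternatives (0.14 to 0.23).

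Deviations of libraries with the same replicate number had correlations of −0.05 to 0.14 over 18 pairs. For different numbers they were −0.099 to 0.082 over 36 pairs, and 6 of 12 libraries correlated best with their own number. Such low values cannot show whether the cultures were paired, so pairing stays unknown. With the replicate block, 7355, 6373, 6872, 7890 and 8114 genes were called in place of 7372, 6392, 6882, 7898 and 8136 for OGD/R in shCtrl cells, OGD/R in shAnxa2 cells, the lines untreated, the lines after OGD/R and the difference of OGD/R changes. Counts limit Mmp13, Mmp14, Mmp8 and Timp1, which held 96, 71, 74 and 12 counts in all.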
